A study of Homo sapiens with 42 samples.

Results

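The 9 genes described here are NFE2L2, which encodes the transcription factor NRF2, and 8 genes known as NRF2 targets: GCLM, GCLC, TXNRD1, SRXN1, NQO1, HMOX1, TRIM16 and OSGIN1. They were chosen by name from 19775 genes measured on 42 Affymetrix whole-genome arrays, and each is read through its probe set of a single gene symbol with the highest mean signal over all arrays. All 9 were measured. Each value below is a centred log2 signal, the log2 signal of the gene less the median gene of the same array, so that 1 unit is a doubling and levels of different genes cannot be set against each other.

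NRF2 is held at a low level by KEAP1, an adaptor that presents it to the CUL3 ubiquitin ligase for destruction by the proteasome. CUL3 works only when the small protein NEDD8 is attached to it, and MLN4924 blocks the enzyme that activates NEDD8. When NRF2 escapes KEAP1 it pairs with small MAF proteins on antioxidant response elements and drives genes that make glutathione, reduce oxidised thioredoxin and detoxify quinones and haem. BACH1 is a repressor that occupies the same elements.

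The cells were A375, an established human melanoma line with an activating BRAF mutation and wild-type p53. They were transfected for 48 hours with siRNA against GL2 (a luciferase sequence, used as the control), p53, CDT1 or BRCA1. Cultures of 27000 cells then received for 26 hours either 0.065% DMSO (the solvent), 650 nM MLN4924, 5 uM Nutlin or 100 nM daunorubicin. Nutlin frees p53 from its ubiquitin ligase MDM2, and daunorubicin is a topoisomerase poison that damages DNA. The GL2 and p53 siRNA cells were given all 4 treatments, and for these the DMSO arrays come in 2 sets, called first and second here. The CDT1 and BRCA1 siRNA cells were given DMSO and MLN4924. This makes 14 groups of 3 arrays, all of 1 cell line. Nothing in the labels says that the 3 arrays of a group came from separate cultures. The p-values thus set a difference only against the spread among these arrays, and that spread may be technical.

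Checks of the labels and of RNA quality bear on what follows. First, 3 libraries stand apart or go against their labels. The BRCA1 level was 1.90, 2.18 and -1.35 in the 3 libraries labelled GL2 MLN4924 and -1.13, -0.78 and 2.12 in those labelled BRCA1 MLN4924, so that library 3 of each has the level of the other group. The BRCA1 level was 2.47 to 2.90 in GL2 DMSO and -0.23 to -0.07 in BRCA1 DMSO. The library labelled p53 Daunorubicin 1 had an ACTB 5′ to 3′ probe ratio of 0.0118 against 0.649 to 0.945 on the other 41 arrays. Results that rest on these libraries are given without them too. Second, CDKN1A, a p53 target, was at 2.95 to 3.20 in the GL2 DMSO arrays and 0.43 to 1.52 in the p53 DMSO arrays, and CDT1 was at 2.51 to 3.11 in GL2 DMSO against 0.45 to 0.71 in CDT1 DMSO. In p53 siRNA cells CDKN1A averaged 1.53 with MLN4924, 3.07 with Nutlin and 3.93 with daunorubicin, against 5.65, 6.34 and 5.84 in GL2 siRNA cells. Last, the labels do not tie a DMSO set to a treatment. On 13 genes that differed between the sets, with the first set at 0 and the second at 1, the Nutlin and daunorubicin arrays lay at -0.55 to 0.35 and the MLN4924, CDT1 and BRCA1 arrays at 0.54 to 1.14. The first set served as control for Nutlin and daunorubicin. Both sets were pooled for MLN4924 with GL2 or p53 siRNA and for the siRNAs under DMSO, although the positions of those arrays are nearer the second. Both choices followed earlier results of these data, so the drugs have unlike controls. With the second sets alone no member's MLN4924 call with GL2 or p53 siRNA changed. SOX10 and MITF, regulators of the melanocyte lineage, lay above the median of all values on all 42 arrays, whereas the pigment genes PMEL and MLANA did so on 4 and 2. Markers of other cell types also lay above it on all 42 arrays: COL1A1, DCN, LUM, KRT14, LYZ and PECAM1. The median over arrays lay above it for 3 of 6 melanocyte markers and 4 of 6 fibroblast markers. This measure thus does not single out the lineage.

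Members of the family are spread over the genome, as placed by RefSeq on GRCh38.p14. NFE2L2 lies at chr2:177230303-177264727, GCLM at chr1:93885199-93909430, GCLC at chr6:53497341-53545101 and TXNRD1 at chr12:104215779-104350307. SRXN1 lies at chr20:646615-653200, NQO1 at chr16:69709401-69726560, HMOX1 at chr22:35381096-35394207, TRIM16 at chr17:15627966-15684311 and OSGIN1 at chr16:83953240-83966332. The deposited table gives no position of a probe set within its gene.

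Since 7 of these genes were higher on every MLN4924 array than on any other, the promoters of the members were searched for the core of the antioxidant response element, TGACNNNGC, on both strands of the 300 bases from 250 before to 50 after each start in the RefSeq table. Of 35116 promoters, 4687 (13.3%) hold the motif. Of the 10 promoters found for 8 members, 3 hold it: that of GCLM and both starts of TXNRD1. The stretches of 140 bases below end 10 bases after the start, on the gene's strand, with the motif in capitals. They are shown because no other member's promoter in the table holds the motif in this window. A match is a description of these letters, and no element was tested.
GCLM, chr1:93909421-93909560, minus strand: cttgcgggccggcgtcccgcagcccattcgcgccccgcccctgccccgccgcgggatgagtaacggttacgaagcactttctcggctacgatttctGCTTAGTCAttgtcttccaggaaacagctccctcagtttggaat
TXNRD1, upstream start, chr12:104215649-104215788, plus strand: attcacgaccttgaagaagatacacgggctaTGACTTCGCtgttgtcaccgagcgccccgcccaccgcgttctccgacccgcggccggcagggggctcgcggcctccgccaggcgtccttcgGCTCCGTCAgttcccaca
TXNRD1, downstream start, chr12:104286902-104287041, plus strand: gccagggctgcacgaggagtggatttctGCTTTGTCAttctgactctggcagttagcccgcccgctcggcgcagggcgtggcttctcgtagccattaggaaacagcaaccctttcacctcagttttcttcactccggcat

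MLN4924 raised most of these genes whatever the siRNA. A gene was called at a limma adjusted p under 0.05 (Benjamini-Hochberg over all genes) with a change of at least 1.5-fold. In GL2 siRNA cells 7 of 9 members were called higher and 0 lower, where 10.2% of all genes were called higher and 7.06% lower, and the median change was 1.28 against 0.08 over all genes. In p53 siRNA cells 8 were called higher and 0 lower (17.8% and 7.6% of all genes), with a median of 1.60. In CDT1 siRNA cells 6 were called higher and 0 lower (5.93% and 4.63%), with a median of 1.09. In BRCA1 siRNA cells 7 were called higher and 0 lower (9.79% and 7.15%), with a median of 1.64. GCLM, TXNRD1, SRXN1, HMOX1, TRIM16 and OSGIN1 were called with all 4 siRNAs. Fewer cells of a kind and less RNA per cell cannot be told apart in such bulk samples. Centring on the median gene adds 0.18, 0.42, 0.11 and 0.18 to every change in GL2, p53, CDT1 and BRCA1 siRNA cells, so members' calls that the deposited scaling does not give are named below.

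**Figure D1:**
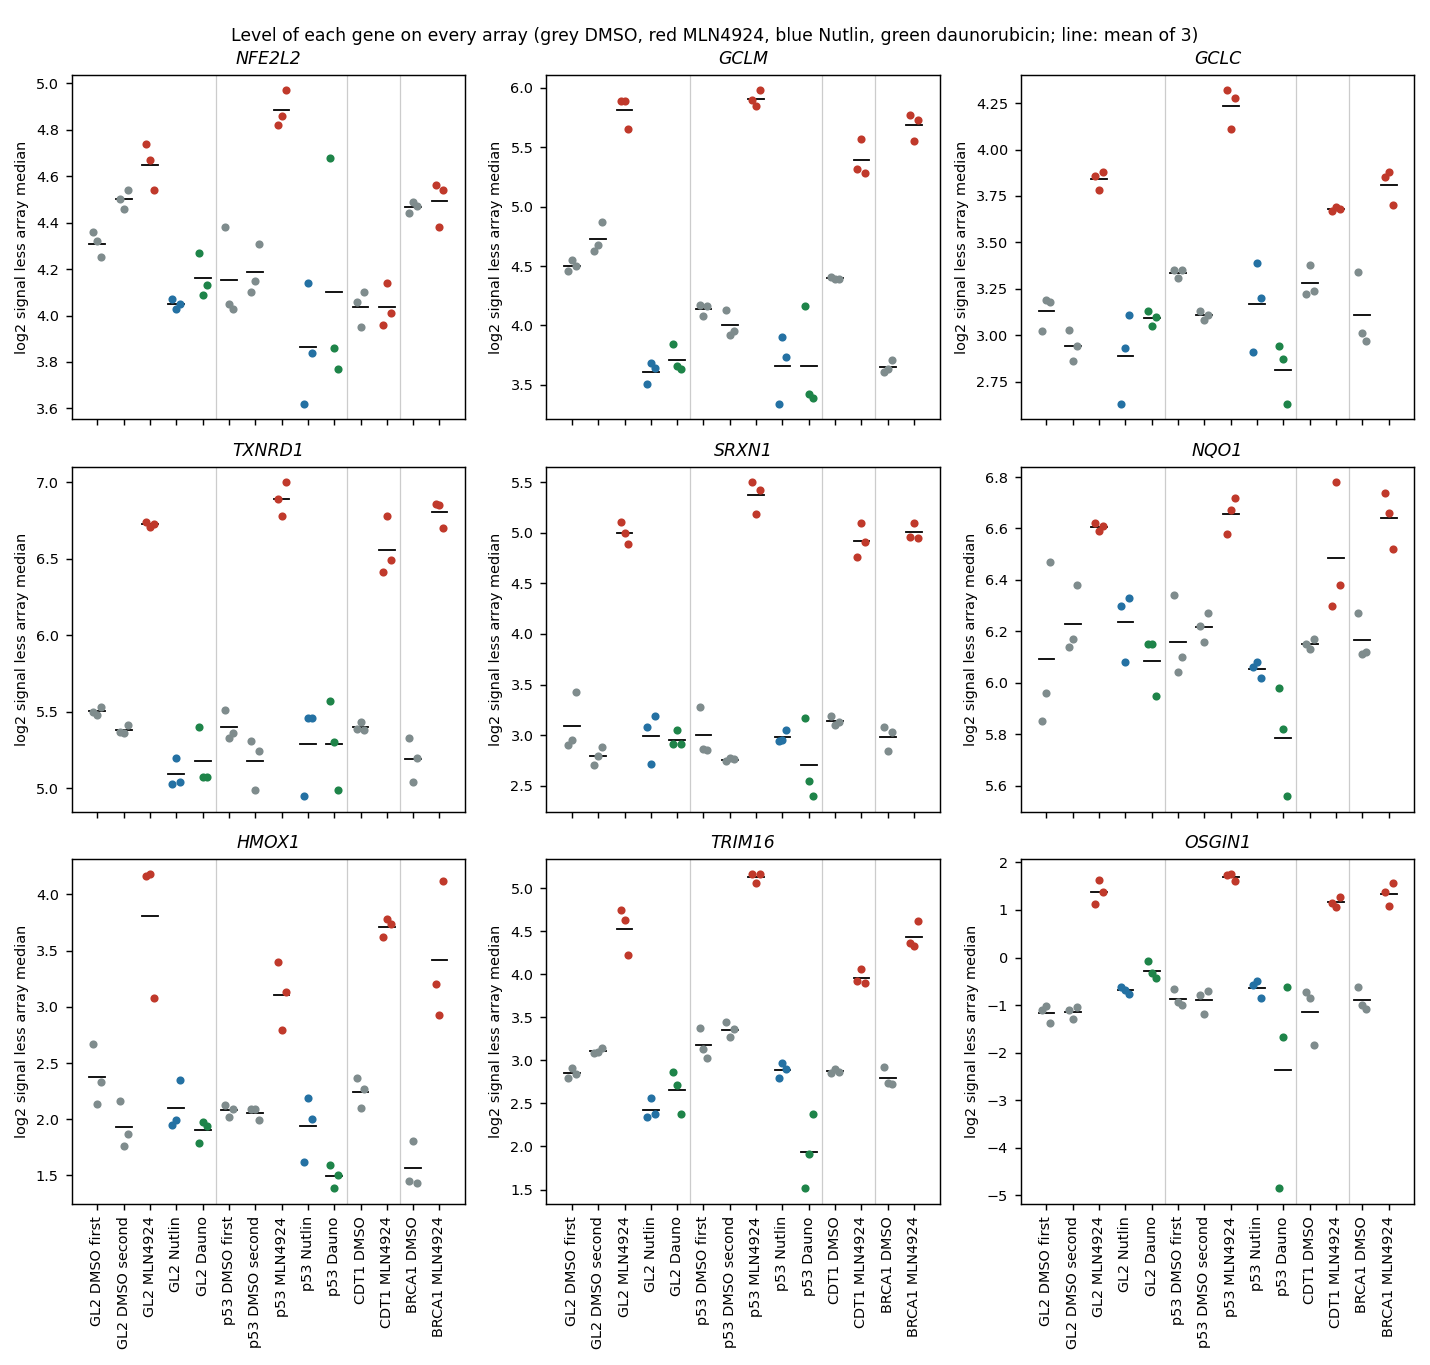
Centred log2 signal (vertical axis) of each of the 9 genes on all 42 arrays, by siRNA and treatment group, with a line at the mean of the 3 arrays. The 12 MLN4924 arrays lie above the 30 others for GCLM, GCLC, TXNRD1, SRXN1, HMOX1, TRIM16 and OSGIN1, and not for NFE2L2 and NQO1.

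Across the whole design, all 12 MLN4924 arrays lay above all 30 other arrays for 7 of the 9 genes, an arrangement that 1.68% of all genes (333) had, while 0.733% (145) lay wholly below. GCLM ran from 5.28 to 5.98 with MLN4924 and from 3.34 to 4.87 without. TXNRD1 ran from 6.41 to 7.0 with it and from 4.95 to 5.57 without. SRXN1 ran from 4.76 to 5.50 with it and from 2.40 to 3.43 without. The 2 exceptions were NQO1, for which 10 of 12 MLN4924 arrays lay above all others, and NFE2L2, for which 4 did.

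NFE2L2 itself was called with 1 of the 4 siRNAs. In GL2 siRNA cells it was at 4.36, 4.32 and 4.25 in the first DMSO set, 4.50, 4.46 and 4.54 in the second and 4.74, 4.67 and 4.54 with MLN4924. The MLN4924 arrays overlap the second set, and the difference of 0.25 ± 0.13 (SE, 3 arrays against 6) did not pass the test (limma adjusted p = 0.156). With p53 siRNA it was at 4.38, 4.05 and 4.03 in the first set, 4.10, 4.15 and 4.31 in the second and 4.82, 4.86 and 4.97 with MLN4924. These groups do not overlap, and the rise of 0.72 ± 0.13 was called (adjusted p = 3.1e-05). It was 0.30 and not called at the deposited scaling, and 0.20 after quantile normalization. In CDT1 siRNA cells the difference was 0.00 ± 0.15 and in BRCA1 siRNA cells 0.03 ± 0.15. The order of NFE2L2 over the 14 groups ran from 4.89 in p53 MLN4924 to 3.87 in p53 Nutlin. Apart from p53 MLN4924, which lay clear of the next group, and a gap between BRCA1 DMSO (4.47) and the first GL2 DMSO set (4.31), neighbouring groups overlapped. The CDT1 MLN4924 arrays, at 3.96 to 4.14, lay among the lowest groups for NFE2L2 although the same arrays were among the highest for its targets. NFE2L2 was read through its brightest probe set, and its other 2 are dim, below the median of all values.

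Glutathione synthesis is limited by glutamate-cysteine ligase, whose catalytic subunit is GCLC and whose modifier subunit is GCLM. GCLM was at 4.46, 4.55 and 4.50 in the first GL2 DMSO set, 4.63, 4.68 and 4.87 in the second and 5.89, 5.89 and 5.65 with MLN4924, a rise of 1.19 ± 0.12 (adjusted p = 5.6e-09). In p53 siRNA cells it stood at 3.92 to 4.17 over the 6 DMSO arrays and at 5.90, 5.85 and 5.98 with MLN4924, a rise of 1.84 ± 0.12. With CDT1 siRNA it went from 4.41, 4.39 and 4.39 to 5.32, 5.57 and 5.28, a rise of 0.99 ± 0.14. The MLN4924 arrays lay clear of their DMSO arrays in each case. In BRCA1 siRNA cells GCLM was at 3.61, 3.63 and 3.71 under DMSO and 5.77, 5.55 and 5.73 with MLN4924, the widest of the 4 rises at 2.03 ± 0.14. The other 2 probe sets of GCLM rose by 1.41 and 1.59 in GL2 siRNA cells and by 2.44 and 2.66 in BRCA1 siRNA cells.

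The changes of GCLC were smaller than those of GCLM. It was at 3.02, 3.19 and 3.18 in the first GL2 DMSO set, 3.03, 2.86 and 2.94 in the second and 3.86, 3.78 and 3.88 with MLN4924, a rise of 0.80 ± 0.10 (adjusted p = 1.7e-07). It rose by 1.01 ± 0.10 with p53 siRNA, to 4.32, 4.11 and 4.28. These p53 arrays are clear of all other groups. In BRCA1 siRNA cells it rose by 0.70 ± 0.11, to 3.85, 3.88 and 3.70, and in CDT1 siRNA cells it differed by 0.40 ± 0.11 (adjusted p = 0.0148), which is under 1.5-fold although the arrays, 3.67 to 3.69 against 3.22 to 3.38, do not overlap. The GCLC calls depend on the scaling: the rise was 0.52 and not called in BRCA1 siRNA cells at the deposited scaling, and after quantile normalization it was 0.57, 0.53 and 0.52 and not called in GL2, p53 and BRCA1 siRNA cells. Leaving out the 3 doubted libraries gave 0.78 in GL2 and 0.76 in BRCA1 siRNA cells, both called.

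TXNRD1 encodes the cytosolic thioredoxin reductase, which uses NADPH to recycle thioredoxin. In GL2 siRNA cells it was at 5.50, 5.48 and 5.53 in the first DMSO set, 5.37, 5.36 and 5.41 in the second and 6.74, 6.71 and 6.73 with MLN4924. The rise of 1.28 ± 0.12 (adjusted p = 3.4e-10) is far outside the spread of these arrays. TXNRD1 rose by 1.60 ± 0.12 with p53 siRNA (to 6.89, 6.78 and 7.0), 1.16 ± 0.13 with CDT1 siRNA (to 6.41, 6.78 and 6.49) and 1.61 ± 0.13 with BRCA1 siRNA (to 6.86, 6.85 and 6.70). Its second probe set, at a mean log2 signal of 0.63, is dim, and when both are averaged the differences with GL2, p53 and CDT1 siRNA are 0.86, 1.36 and 0.72 and not called.

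SRXN1 encodes sulfiredoxin, which restores peroxiredoxins inactivated by peroxide. It was at 2.90, 2.95 and 3.43 in the first GL2 DMSO set, 2.70, 2.79 and 2.88 in the second and 5.11, 5.00 and 4.89 with MLN4924, a rise of 2.06 ± 0.14 (adjusted p = 5.1e-13). With p53 siRNA it reached 5.50, 5.19 and 5.42, with CDT1 siRNA 4.76, 5.10 and 4.91 and with BRCA1 siRNA 4.96, 5.10 and 4.95. The rises there were 2.50 ± 0.14, 1.79 ± 0.16 and 2.02 ± 0.16. Between the 10 groups without MLN4924 the means of SRXN1 ran only from 2.71 to 3.14, so that its pattern over the design was close to a single step.

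NQO1, a quinone reductase often used to read NRF2 activity, had the smallest MLN4924 change of the 8 targets in each siRNA. It was at 5.85, 5.96 and 6.47 in the first GL2 DMSO set, 6.14, 6.17 and 6.38 in the second and 6.62, 6.59 and 6.61 with MLN4924. The arrays do not overlap, and the difference of 0.44 ± 0.11 passed the adjusted p (0.00297) but not the 1.5-fold minimum. The same held with p53 siRNA (0.47 ± 0.11, adjusted p = 0.00125) and BRCA1 siRNA (0.47 ± 0.13, adjusted p = 0.00696), and with CDT1 siRNA the difference was 0.33 ± 0.13 (adjusted p = 0.0835). At the deposited scaling NQO1 differed by 0.26, 0.05, 0.22 and 0.29 with GL2, p53, CDT1 and BRCA1 siRNA, and of these only the first passed the adjusted p (0.039). Its other 2 probe sets, somewhat less bright, changed by 0.61 and 0.81 in GL2 siRNA cells. The mean over all 3 probe sets rose by 0.64 ± 0.11 there and was called. The probe set used here had a mean log2 signal of 12.31, and whether brightness limits its change was not tested.

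HMOX1 encodes haem oxygenase, which breaks down haem. It was at 2.67, 2.14 and 2.33 in the first GL2 DMSO set, 2.16, 1.76 and 1.87 in the second and 4.16, 4.18 and 3.08 with MLN4924. The low value belongs to library 3, one of those that go against their labels. In BRCA1 siRNA cells it was at 1.45, 1.81 and 1.43 under DMSO and 3.20, 2.93 and 4.12 with MLN4924, where library 3 is the high one. The rises were 1.65 ± 0.21 and 1.85 ± 0.24 with these libraries and 2.01 ± 0.16 and 1.50 ± 0.17 without them, all called. HMOX1 rose by 1.46 ± 0.24 with CDT1 siRNA (to 3.62, 3.78 and 3.74) and by 1.04 ± 0.21 with p53 siRNA (to 3.40, 2.79 and 3.13, from 1.99 to 2.13), the latter 0.63 and still called at the deposited scaling.

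TRIM16, an E3 ligase linked to oxidative stress and autophagy, was at 2.80, 2.91 and 2.84 in the first GL2 DMSO set, 3.08, 3.10 and 3.14 in the second and 4.74, 4.63 and 4.22 with MLN4924, a rise of 1.55 ± 0.13 (adjusted p = 6.6e-11). With p53 siRNA it rose by 1.86 ± 0.13, to 5.16, 5.06 and 5.16, above every other array. It rose by 1.64 ± 0.15 with BRCA1 siRNA and, least, by 1.09 ± 0.15 with CDT1 siRNA, to 3.92, 4.06 and 3.90. Whether this probe set also reads the closely related TRIM16L was not tested.

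OSGIN1, an oxidative stress-induced growth inhibitor, is weakly expressed: its GL2 and CDT1 DMSO arrays average below the median of all values, so the size of its change is uncertain. It was at -1.10, -1.01 and -1.38 in the first GL2 DMSO set, -1.11, -1.29 and -1.03 in the second and 1.13, 1.63 and 1.38 with MLN4924. The rises were 2.53 ± 0.44 with GL2 siRNA (adjusted p = 3.2e-05), 2.57 ± 0.44 with p53 siRNA, 2.31 ± 0.50 with CDT1 siRNA and 2.24 ± 0.50 with BRCA1 siRNA. All 12 MLN4924 arrays, from 1.07 to 1.75, lay above the highest other array, at -0.08.

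**Figure D2:**
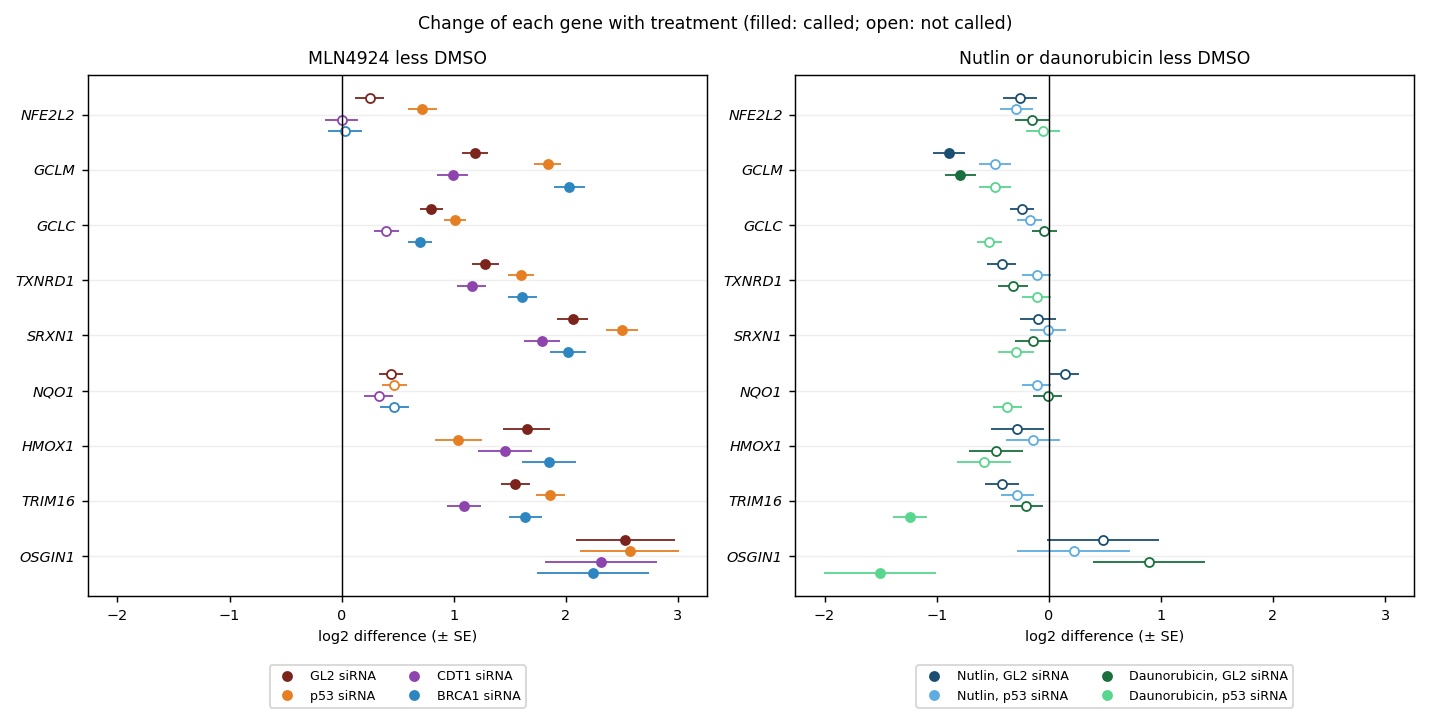
Log2 difference from DMSO with its standard error (horizontal axis) of each gene with MLN4924 in the 4 siRNAs (left) and with Nutlin or daunorubicin in 2 siRNAs (right), filled where called. All members but NFE2L2 (called in p53 siRNA cells alone, and not at the deposited scaling) and NQO1 were called higher with MLN4924 in GL2, p53 and BRCA1 siRNA cells, and GCLM was called lower with Nutlin and daunorubicin in GL2 siRNA cells.

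With Nutlin and daunorubicin in GL2 siRNA cells members were called about as rarely as all genes were. With Nutlin in GL2 siRNA cells 0 members were called higher and 1 lower (6.71% and 9.67% of all genes), and with daunorubicin again 0 higher and 1 lower (6.49% and 9.93%). The gene was GCLM both times. It was at 3.51, 3.68 and 3.64 with Nutlin and 3.84, 3.66 and 3.63 with daunorubicin, below all 6 GL2 DMSO arrays. The falls were -0.89 ± 0.14 (adjusted p = 1.3e-05) and -0.79 ± 0.14 (adjusted p = 6.8e-05), against the same first DMSO set, which both comparisons share. The other 2 GCLM probe sets gave -0.94 and -1.05 with Nutlin. TXNRD1 and TRIM16 were each lower by 0.42 with Nutlin, differences of -0.42 ± 0.13 and -0.42 ± 0.15 that passed the adjusted p (0.0215 and 0.0374) but not 1.5-fold. Against the second DMSO set the TRIM16 difference was -0.68 and called.

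OSGIN1 was at -0.08, -0.32 and -0.43 with daunorubicin in GL2 siRNA cells, above all 6 DMSO arrays. The difference of 0.89 ± 0.50 missed the threshold (adjusted p = 0.24) in the fit of all arrays, whose spread for OSGIN1 includes the library labelled p53 Daunorubicin 1 at -4.84. Without the 3 doubted libraries it was 0.89 ± 0.23 and called (adjusted p = 0.00325).

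Between the drugs in GL2 siRNA cells, the MLN4924 change exceeded the Nutlin change for 7 members and was below it for 0 (17% and 8.69% of all genes). It exceeded the daunorubicin change for 7 and was below it for 0 (18.2% and 9.03%). The GCLM changes differed by 2.09 ± 0.16 and 1.99 ± 0.16, and those of SRXN1 by 2.16 ± 0.18 and 2.20 ± 0.18. Nutlin and daunorubicin differed for 0 members in either direction (1.08% and 1.22%), with 0 members at an unadjusted limma p under 0.05. Each drug was given at 1 dose, and centring adds 0.31 and 0.35 to the first 2 of these differences. GCLC, at 0.84 ± 0.13 over daunorubicin, was not called at the deposited scaling (0.49), nor was OSGIN1 (1.29). The MLN4924 change was taken from both DMSO sets and the other drugs' changes from the first. With the same DMSO sets for both drugs the DMSO level cancels, leaving the MLN4924 arrays set against the Nutlin arrays. NFE2L2 was called over Nutlin there, at 0.60 ± 0.15 (limma adjusted p = 0.0015). Since the MLN4924 and Nutlin arrays lie nearer different DMSO sets, that value takes no account of a difference between the sets. NFE2L2 was at 0.51 with the sets used here and 0.20 at the deposited scaling, not called.

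In p53 siRNA cells Nutlin changed 0 members in either direction (0.0405% and 0.0152% of all genes), with 1 member at an unadjusted limma p under 0.05. That was GCLM, at 3.34, 3.90 and 3.73 against 4.17, 4.08 and 4.16 in the first DMSO set, a difference of -0.48 ± 0.14 (adjusted p = 0.261) between arrays that do not overlap. The difference between its Nutlin changes in p53 and GL2 siRNA cells was 0.41 ± 0.20 and not called, as for all members (0 higher and 0 lower, against 5.3% and 4.72% of all genes; 1 at an unadjusted p under 0.05). It was 0.77 ± 0.20 and called with the second DMSO sets as control, and 0.59 ± 0.17 and called with both. The comparison of MLN4924 with Nutlin in p53 siRNA cells gave 8 members higher and 0 lower (21.2% and 6.3%), and that with daunorubicin 9 and 0 (19.1% and 7.8%). Centring adds 0.55 and 0.49 there: at the deposited scaling NFE2L2 was at 0.45 and 0.28, HMOX1 at 0.63 over Nutlin (adjusted p = 0.0602) and NQO1 at 0.35 over daunorubicin, none of them called. With the same DMSO sets for MLN4924 and Nutlin, where the DMSO level again cancels, NQO1 was called over Nutlin, at 0.61 ± 0.13 (limma adjusted p = 3.4e-04). This NQO1 difference was 0.58 with the sets used here and 0.02 at the deposited scaling, not called.

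Daunorubicin in p53 siRNA cells gave 0 members higher and 2 lower (5.67% and 6.35% of all genes). TRIM16 was at 1.52, 1.91 and 2.38 against 3.37, 3.13 and 3.03 in the first p53 DMSO set, a fall of -1.24 ± 0.15 (adjusted p = 5.4e-07), and -1.03 and still called without the library of low RNA quality, which is the 1.52. The mean of this group, 1.94, was the lowest for TRIM16. OSGIN1 was at -4.84, -1.66 and -0.62, and its fall of -1.51 ± 0.50 (adjusted p = 0.0345) rests on that library: without it the difference was -0.28 ± 0.25 and not called. It was -2.39 ± 0.44 without library 3 of the group, and was not called without any 1 of the 3 p53 DMSO arrays (adjusted p = 0.065 to 0.109) or at the deposited scaling (-1.44, adjusted p = 0.0595). For GCLM, at 4.16, 3.42 and 3.39, the library has the opposite effect, with -0.48 ± 0.14 and no call with the library and -0.73 ± 0.12 and a call without it. Without the 3 doubted libraries GCLC (-0.59) and HMOX1 (-0.63) were called lower too, from -0.53 and -0.58 with them. The 3 GCLM probe sets disagree here, at -0.48, -0.10 and -1.58, and those of NQO1 gave -0.37, -0.95 and -0.67.

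The daunorubicin change itself differed between p53 and GL2 siRNA cells for 2 members, both lower with p53 siRNA (0 higher, against 9.65% and 5.69% of all genes). The TRIM16 change was -1.24 with p53 siRNA and -0.20 with GL2 siRNA, a difference of -1.04 ± 0.21 (adjusted p = 0.00055), or -0.83 ± 0.16 without the doubted libraries. For OSGIN1 the difference was -2.40 ± 0.71 (adjusted p = 0.0178), and -1.17 ± 0.34 without them (adjusted p = 0.0154). With a spread estimated from only the 4 groups compared, neither was called (adjusted p = 0.0833 and 0.276). The GCLM difference was 0.31 ± 0.20 with the first DMSO sets and 0.67 ± 0.20 and called with the second. GCLC differed by -0.49 ± 0.16 (limma adjusted p = 0.035), under 1.5-fold. It was called at the deposited scaling (-0.59) and after quantile normalization (-0.69).

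**Figure D3:**
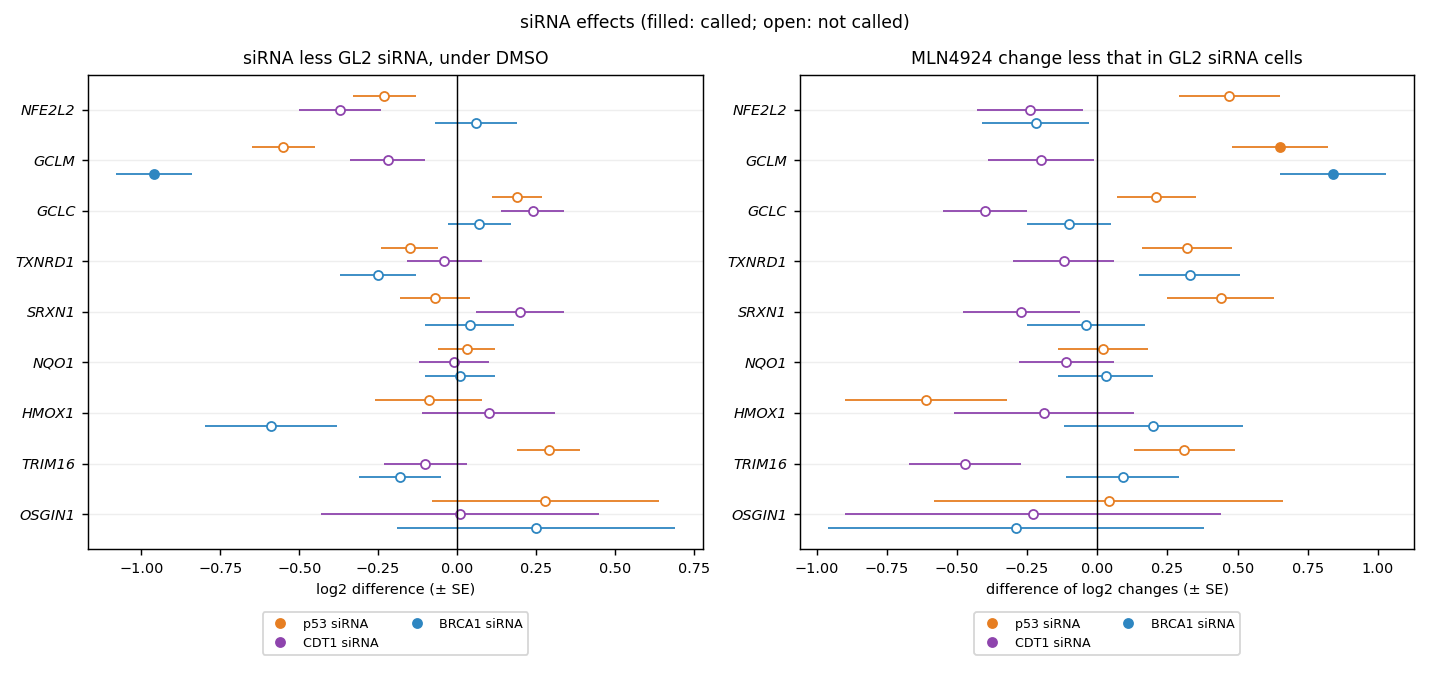
Log2 difference with its standard error (horizontal axis) of each gene between each siRNA and GL2 siRNA under DMSO (left), and between the MLN4924 changes in that siRNA and in GL2 siRNA (right), filled where called. GCLM is the only member called in either panel: lower under DMSO with BRCA1 siRNA, and with a larger MLN4924 change with p53 and BRCA1 siRNA.

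Under DMSO the siRNAs gave few calls among the members, as among all genes. With p53 siRNA 0 were called higher and 0 lower (1.71% and 2.27% of all genes), with 4 at an unadjusted limma p under 0.05, and with CDT1 siRNA 0 and 0 (2.72% and 3.58%), with 2 at that p. With BRCA1 siRNA 0 were called higher and 1 lower (4.11% and 4.37%). That gene was GCLM, at 3.61, 3.63 and 3.71 against 4.46 to 4.87 over the 6 GL2 DMSO arrays, a fall of -0.96 ± 0.12 (adjusted p = 2.0e-06), and its other probe sets gave -1.25 and -1.24. With p53 siRNA GCLM differed by -0.55 ± 0.10 (adjusted p = 0.00031), under 1.5-fold, and by -0.72 and called between the second sets. HMOX1 with BRCA1 siRNA differed by -0.59 ± 0.21 (adjusted p = 0.0513). It was called without the doubted libraries at -0.59 ± 0.13, against the first GL2 set at -0.82, and at -0.65 without GL2 DMSO first set 2. Against the second GL2 set, which the BRCA1 DMSO arrays lie nearer, HMOX1 differed by -0.37 ± 0.24 and was not called (limma adjusted p = 0.363). Between the DMSO sets 0 members were called in GL2 siRNA cells (0.364% of all genes higher and 0.576% lower) or in p53 siRNA cells (0.0809% and 0.197%), with 0 at an unadjusted p under 0.05 in either.

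The size of the MLN4924 change was compared between each siRNA and GL2. With p53 siRNA 1 member changed more and 0 less (6.96% and 3.41% of all genes), with BRCA1 siRNA 1 and 0 (0.632% and 1.23%), and with CDT1 siRNA 0 and 0 (0.521% and 0.698%), with 2 members at an unadjusted limma p under 0.05 in the last. The member was GCLM both times. Its change was larger by 0.65 ± 0.17 with p53 siRNA (adjusted p = 0.0122) and by 0.84 ± 0.19 with BRCA1 siRNA (adjusted p = 0.0136), and both comparisons share the GL2 arrays. Set beside the levels, the GCLM means with MLN4924 were 5.81, 5.91 and 5.68 in GL2, p53 and BRCA1 siRNA cells, where neighbouring groups overlap, while the DMSO means were lower with p53 siRNA (4.13 and 4.0) and BRCA1 siRNA (3.65) than with GL2 siRNA (4.50 and 4.73). The p53 difference was 0.47 with the first DMSO sets, 0.41 without centring and 0.57 without the doubted libraries or without GL2 MLN4924 library 3 alone, none of them called. The BRCA1 difference was 0.73 with the first set and not called (adjusted p = 0.0553), and 0.74 ± 0.16 and called without the doubted libraries.

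For HMOX1 and TRIM16 a difference between MLN4924 changes was called once the doubted libraries were left out. The HMOX1 change was smaller with p53 siRNA by -0.61 ± 0.29 in the fit of all arrays (adjusted p = 0.189) and by -0.97 ± 0.21 without those libraries (adjusted p = 0.00129). On all arrays without centring it was -0.84 and called. For TRIM16 with CDT1 siRNA the difference was -0.47 ± 0.20 (adjusted p = 0.286) and -0.62 ± 0.15 without the doubted libraries (adjusted p = 0.0161). On all arrays with the second DMSO sets as control, neither was called. The HMOX1 difference was then -0.82 ± 0.34 (limma adjusted p = 0.119) and the TRIM16 difference -0.34 ± 0.21 (limma adjusted p = 0.514). Apart from GCLM and HMOX1, the members' MLN4924 changes with p53 siRNA differed from those with GL2 siRNA by between 0.02 (NQO1) and 0.47 (NFE2L2), none of them called.

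Other genes of the pathway were read from 5 lists. With MLN4924 and GL2, p53, CDT1 and BRCA1 siRNA, the order used below, 10.2%, 17.8%, 5.93% and 9.79% of all genes were called higher and 7.06%, 7.6%, 4.63% and 7.15% lower, with medians of 0.08, 0.20, 0.10 and 0.16. At the deposited scaling the median over all genes was -0.22 with p53 siRNA. The shares of all genes called at that scaling are not given, so the lists' counts there show only how calls depend on scaling. Of 12 measured genes of NRF2 regulation, 4, 6, 3 and 3 were called higher with MLN4924 and 0 lower, with medians of 0.34, 0.66, 0.31 and 0.34. MAFF, a small MAF partner of NRF2, rose by 1.78 ± 0.13, 2.71 ± 0.13, 1.48 ± 0.15 and 1.84 ± 0.15. KEAP1 rose by 0.93 ± 0.10, 1.26 ± 0.10 and 0.92 ± 0.11 in GL2, p53 and BRCA1 siRNA cells, and MAFG, another partner, by 1.16, 1.21 and 0.68 (0.50 and not called at the deposited scaling in the last). BACH1 rose by 0.74, 0.76 and 0.84 in GL2, p53 and CDT1 siRNA cells, of which the first was 0.57 and not called without the doubted libraries. At the deposited scaling BACH1 was called with CDT1 siRNA alone, and 3 genes of the list were called higher with p53 siRNA. CUL3 fell by -0.76 ± 0.13 with Nutlin and -0.78 ± 0.13 with daunorubicin in GL2 siRNA cells.

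The glutathione list holds 22 measured genes. Of these 8, 7, 5 and 7 were called higher with MLN4924, where 10.2%, 17.8%, 5.93% and 9.79% of all genes were. Called lower were 0, 1, 0 and 0 (7.06%, 7.6%, 4.63% and 7.15% of all genes), and the medians were 0.33, 0.27, 0.18 and 0.27. SLC7A11, the cystine importer, rose by 1.53 ± 0.17, 1.70 ± 0.17, 1.24 ± 0.19 and 0.97 ± 0.19. Its partner chain SLC3A2 rose by 1.02 ± 0.11, 1.85 ± 0.11, 1.0 ± 0.13 and 0.77 ± 0.13. GSR, which regenerates reduced glutathione, rose by 1.73 ± 0.14, 1.10 ± 0.16 and 1.70 ± 0.16 in p53, CDT1 and BRCA1 siRNA cells. CHAC1, which degrades glutathione, rose by 4.03 ± 0.28, 2.09 ± 0.32 and 3.40 ± 0.32 there and is dim in 4 groups. At the deposited scaling 6 of the list were called higher and 4 lower with p53 siRNA, with a median of -0.15 against -0.22 over all genes. With Nutlin in GL2 siRNA cells 4 of the 22 were called higher and 2 lower, where 6.71% and 9.67% of all genes were, among them MGST2, a glutathione transferase of membranes, at 1.01 ± 0.13.

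Of 13 measured thioredoxin genes, 5, 6, 3 and 5 were called higher with MLN4924, where 10.2%, 17.8%, 5.93% and 9.79% of all genes were, and 0 lower, with medians of 0.41, 0.58, 0.30 and 0.53. At the deposited scaling these counts were 5, 3, 3 and 2. SESN1 and SESN2, sestrins known as targets of p53 and of stress signals, rose by 2.26 ± 0.12 and 1.80 ± 0.18 with MLN4924 in GL2 siRNA cells, and by 2.89 ± 0.13 and 1.65 ± 0.20 with Nutlin. TXNIP, an inhibitor of thioredoxin, rose by 1.87 ± 0.19 with MLN4924 and by 1.08 ± 0.22 with daunorubicin in the same cells. TXN, thioredoxin itself, rose in p53 siRNA cells by 0.66 ± 0.11, which was 0.24 and not called at the deposited scaling.

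Of 6 measured genes of NADPH supply, 1, 2, 0 and 2 were called higher with MLN4924 and 0 lower, with medians of 0.43, 0.62, 0.26 and 0.49. Of all genes 10.2%, 17.8%, 5.93% and 9.79% were called higher, and a list of 6 gives only a coarse share to set beside them. At the deposited scaling 0 were called higher with any siRNA and 2 were called lower with p53 siRNA. TALDO1, of the pentose phosphate pathway, was at 0.62 ± 0.10 in GL2 siRNA cells and 0.54 and not called without the doubted libraries. With daunorubicin in p53 siRNA cells 3 of the 6 were called lower, where 6.35% of all genes were, and TKT, another enzyme of that pathway, fell by -0.92 ± 0.12. PGD and PGLS, at -1.10 and -1.04, were not called without the doubted libraries (-0.38 and -0.52).

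Of 20 measured genes of haem, iron and quinone handling, 9, 6, 5 and 4 were called higher with MLN4924 (10.2%, 17.8%, 5.93% and 9.79% of all genes) and 1, 0, 1 and 1 lower (7.06%, 7.6%, 4.63% and 7.15%), with medians of 0.46, 0.40, 0.46 and 0.36. With p53 siRNA the deposited scaling gave 3 higher and 3 lower. AKR1B10, an aldo-keto reductase, rose by 3.21 ± 0.12, 2.24 ± 0.12, 2.32 ± 0.14 and 3.47 ± 0.14. It also rose by 1.45 ± 0.14 with Nutlin and 1.54 ± 0.14 with daunorubicin in GL2 siRNA cells, where SRXN1 differed by -0.10 and -0.14. ALAS1, the first enzyme of haem synthesis, rose by 1.17 ± 0.10 in GL2 siRNA cells, and FECH, the last, by 0.90 ± 0.10. CBR3, a carbonyl reductase, fell by -1.32 ± 0.20 with Nutlin and -1.13 ± 0.20 with daunorubicin in those cells.

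**Figure D4:**
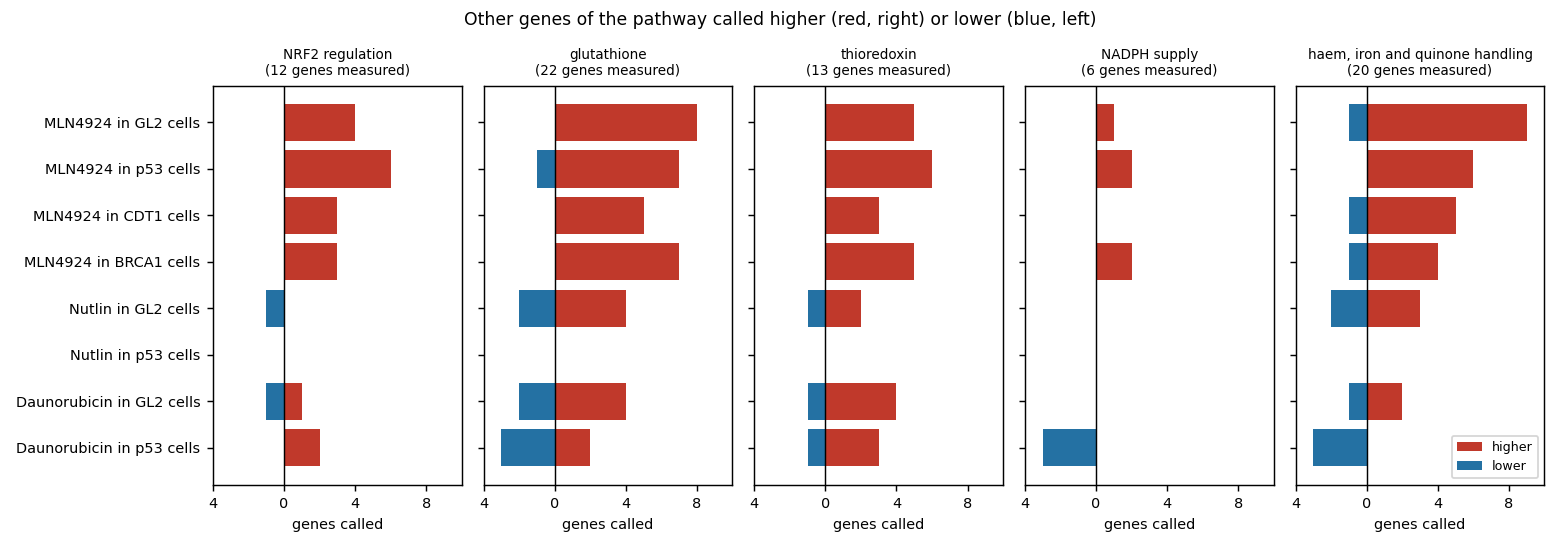
Number of genes called (horizontal axis) higher, in red to the right, or lower, in blue to the left, in each of 5 lists of the pathway and 8 drug comparisons. With MLN4924 on the centred scale at most 1 gene of a list is lower, while the deposited scaling gives up to 4 lower with p53 siRNA, and with Nutlin and daunorubicin calls run both ways.

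Over the 14 group means the 8 targets followed each other closely and NFE2L2 less so. Pearson's r between pairs of targets ran from 0.83 (GCLM with OSGIN1) to 0.98 (TXNRD1 with SRXN1), and between NFE2L2 and a target from 0.41 (HMOX1) to 0.69 (TRIM16). These 14 points share arrays, centring and, above all, the MLN4924 step. Over the 10 groups without MLN4924 GCLM and TXNRD1 still had an r of 0.77, TXNRD1 and OSGIN1 one of -0.32, and TXNRD1 and SRXN1 one of 0.30. The genes whose 14 group means were most like the mean of the 8 targets, among 9879 compared, were IKBKG (r = 0.981), IDH3B (0.980), SPG21 (0.975) and MAP3K14 (0.973). MAP3K14, the NF-kB-inducing kinase, rose by 1.65 ± 0.14 with MLN4924 in GL2 siRNA cells and fell by -0.68 ± 0.17 with Nutlin. Those most like NFE2L2, among 9886, were TMEM222 (0.934), TXNDC9 (0.913), CSNK1A1 (0.903) and MAPK1IP1L (0.903).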

How the data were processed

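Total RNA of 42 samples was hybridised to 1 array each. The deposited table gives the authors' signal intensity on a linear scale for 54675 probe sets, and the submitters' processing notes name Affymetrix Expression Console, without a version. The 2% trimmed mean was 150.0 on every array. Detection calls and scan dates were not used here. The 147 zeros were raised to 0.1, log2 was taken, and the median over genes was subtracted from each array (medians ran from 5.63 to 6.35). Control probe sets, 1801 with several symbols and 11721 with none were left out, and 41091 with 1 symbol named 19775 genes, each read through its brightest probe set.

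Tests used limma 3.58.1 in R 4.3.3 (lmFit, contrasts.fit, eBayes), in 1 fit of 14 groups with 28 residual degrees of freedom and 23 comparisons, with Benjamini-Hochberg adjustment over all genes, and were tested on simulated data. The number of arrays limits the precision. Figures and tables used Python 3.11.15, pandas 2.3.3 and matplotlib 3.10.9. The closest pair of arrays differed by a median of 0.170 log2 units, so no array was counted as a copy of another. Alternatives were scaling, probe set rule, pseudocount of 16, dim genes left out, the replicate block, limma's trend, array weights, fold minimum, DMSO set, the groups in the fit, the doubted libraries and each array left out.

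Members, lists and alternatives were chosen with earlier results of these data known. The rule for named genes takes all 9 members, at most 3 called genes of a list with the largest moderated statistic in a comparison, KEAP1, SLC7A11, TXN, TXNIP and BACH1 where called, and the 8 and 4 genes most like the targets and NFE2L2, some of which are not printed. CDT1, BRCA1 and CDKN1A check the labels. MAFK, TXNRD3, PRDX5 and FTH1 of the lists were not analysed here. The series text counts 12 conditions, and the sample titles give 14 groups because GL2 and p53 siRNA have a second DMSO set each.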

Additional observations from a re-analysis of the deposited data

Results flagged for a closer look

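The GCLM change with MLN4924 differed between siRNAs by the test of the difference itself. It was larger with p53 siRNA than with GL2 siRNA by 0.65 ± 0.17 (limma adjusted p = 0.0122) and larger with BRCA1 siRNA by 0.84 ± 0.19 (adjusted p = 0.0136). The GCLM changes with p53, BRCA1 and GL2 siRNA were 1.84, 2.03 and 1.19. The p53 difference was not called with the first DMSO sets (0.47), at the deposited scaling (0.41) or without the doubted libraries (0.57). The BRCA1 difference was not called with the first set (0.73, limma adjusted p = 0.0553).

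The daunorubicin change differed between p53 and GL2 siRNA cells for TRIM16, by -1.04 ± 0.21 (adjusted p = 0.00055), and for OSGIN1, by -2.40 ± 0.71 (adjusted p = 0.0178). OSGIN1 is dim in the p53 Daunorubicin group, and its value on the library of low RNA quality, -4.84, is the lowest of all 42 arrays. With a spread from only the groups compared, neither difference was called (limma adjusted p = 0.0833 and 0.276).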

How the results depend on the processing

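Of 2150 values of single genes under an alternative, 2031 kept their side of the threshold, 57 lost a call, 62 gained one and 0 reversed a called direction. Values not called either time count as kept. Members called with daunorubicin in p53 siRNA cells, 2 in the report, were 1 at the deposited scaling, 5 with no fold minimum, 3 with the mean of all probe sets or array weights, 0 with only the groups compared, 4 without the doubted libraries and 1 to 3 with each array left out (1 without any of the 3 p53 DMSO arrays of the first set). With BRCA1 siRNA under DMSO, 1 in the report, they were 2 after quantile normalization, without dim genes, with limma's trend, with the first DMSO set, with only the groups compared and without the doubted libraries, 0 at a 2-fold minimum and 1 to 2 with each array left out (2 without GL2 DMSO first set 2). With daunorubicin in GL2 siRNA cells, 1 became 2 with a pseudocount of 16, array weights, only the groups compared or no doubted libraries, and 0 at 2-fold. With Nutlin in GL2 siRNA cells, 1 became 3 with no fold minimum, 0 at 2-fold and 2 with the second DMSO set. With p53 siRNA under DMSO, 0 became 1 with no fold minimum or the second sets. For the difference of the MLN4924 changes between p53 and GL2 siRNA, 1 became 0 after quantile normalization, at 2-fold or with the first sets, and 2 with array weights. For BRCA1 less GL2 siRNA, 1 became 0 at 2-fold or with the first set. For CDT1 less GL2 siRNA, 0 became 1 without the doubted libraries. With the same DMSO sets for MLN4924 and Nutlin the DMSO level cancels. Their comparison then called 1 more member in GL2 siRNA cells (NFE2L2) and 1 more in p53 siRNA cells (NQO1). For the Nutlin change, p53 less GL2 siRNA, 0 became 1 with the second or both DMSO sets, and for the daunorubicin change 2 became 0 with only the groups compared. The daunorubicin count became 3 at the deposited scaling, after quantile normalization and with no fold minimum (GCLC added), and with the second sets (GCLM added). The cause of these shifts was not tested.

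The replicate block changed 0 of 23 counts and 0 of 90 gene values; with it 7 members were called for MLN4924 in GL2 siRNA cells. Replicate numbers do not pair the samples: over 273 pairs of the same number the median correlation of deviations was -0.01, from -0.776 to 0.334, and 10 of 42 arrays correlated best with their own number. Signal near background limits OSGIN1 and CHAC1.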
